A study of Mus musculus with 6 samples.

Results

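Hepatokines are hormones and other regulators that hepatocytes release into the blood, and 9 of their genes are described here: Fgf21, Gdf15, Inhbe, Angptl4, Angptl6, Lect2, Ahsg, Fetub and Sepp1. They were picked by name from the 23284 genes counted in liver RNA. All 9 were among the 12453 genes that passed the filter on low counts. The study expressed either FXR-WT or Y67F-FXR, in which the tyrosine that Src phosphorylates is a phenylalanine, in livers whose own FXR had been removed, to learn what this phosphorylation does for BA regulation.

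Both groups were male FXR-floxed mice. At 8 weeks of age they received through the tail vein an AAV8 mixture of AAV-TBG-Cre with either AAV-TBG-WT FXR or AAV8-TBG-Y67F-FXR. After 4 weeks all mice ate chow with 0.5% cholic acid (CA) for 6 h, which activates FXR. Of each group 3 livers were sequenced, with 1 library each. The TBG promoter is active in hepatocytes, so other liver cells kept mouse FXR in both groups, and livers without any re-expressed FXR were not analysed here. Library totals ranged from 19551113 to 22053320 reads. Reads on Nr1h4, the FXR gene, were at 186 ± 30.2 CPM in FXR-WT and 175 ± 9.84 CPM in Y67F-FXR livers (SD, n = 3 each), a level that does not separate the mouse gene from the transgene. CPM is the reads of a gene divided by the TMM-scaled library size in megareads. Fewer cells of a type and less RNA per cell cannot be told apart in whole liver.

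FGF21 is a hormone made by the liver in fasting and under nutrient stress. Its gene is a known target of PPARα, the nuclear receptor for fatty acids, and of ATF4, the transcription factor of the integrated stress response. GDF15 is a stress hormone that curbs appetite through a receptor in the hindbrain, and Inhbe encodes the βE subunit of activins. Both genes are also known to respond to ATF4 or its partner CHOP. Angptl4 encodes an inhibitor of lipoprotein lipase and, like Fgf21, is a textbook PPARα target. Fetuin-A and fetuin-B (Ahsg and Fetub) are cystatin-family plasma proteins, selenoprotein P (Sepp1, now Selenop) carries selenium from the liver to other organs, and LECT2 is a chemotactic plasma protein.

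RefSeq promoters of assembly GRCm38.p6 matched 8 of the 9 genes, and Angptl4 was not matched. Those of the stress-linked hormones are shown because these genes had unlike fitted changes although all are known to respond to the same pathway. Each sequence is the 250 bases before the start of transcription, 5′ to 3′ on the strand of the gene, which is the minus strand in each case. Capitals mark matches to the searched motifs. The Fgf21 promoter lies at chr7:45615491-45615740, that of Inhbe at chr10:127351849-127352098, and that of the more upstream of the 2 Gdf15 starts at chr8:70632457-70632706.
Fgf21: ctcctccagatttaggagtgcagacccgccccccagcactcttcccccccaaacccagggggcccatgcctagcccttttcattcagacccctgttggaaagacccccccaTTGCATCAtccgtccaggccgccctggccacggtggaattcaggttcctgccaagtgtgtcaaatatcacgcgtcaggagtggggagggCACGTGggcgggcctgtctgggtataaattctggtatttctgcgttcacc
Inhbe: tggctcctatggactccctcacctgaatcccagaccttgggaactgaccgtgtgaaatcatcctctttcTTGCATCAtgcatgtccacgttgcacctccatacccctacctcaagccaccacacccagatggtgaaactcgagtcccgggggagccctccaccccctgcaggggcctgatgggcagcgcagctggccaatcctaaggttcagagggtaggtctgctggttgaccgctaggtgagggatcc
Gdf15: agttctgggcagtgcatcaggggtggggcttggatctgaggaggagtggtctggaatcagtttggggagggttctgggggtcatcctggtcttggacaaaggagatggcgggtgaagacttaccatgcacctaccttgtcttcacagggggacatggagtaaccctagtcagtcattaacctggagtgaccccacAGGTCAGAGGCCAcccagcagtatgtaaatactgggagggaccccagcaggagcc

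Both strands were searched for the C/EBP-ATF composite element TGATGCAA, the E-box CACGTG, DR1 (2 direct copies of AGGNCA around 1 base, bound by PPARα with RXR), IR1 (2 inverted copies of AGGTCA around 1 base, bound by FXR with RXR), the cAMP element TGACGTCA and the CHOP composite TGCAATNCC. These letters were set after the promoters had been read. Fgf21 and Inhbe both held the composite element, on the opposite strand as TTGCATCA, which began at position -139 from the start in Fgf21 and at -181 in Inhbe. The same element stood in 0.791% of 32851 promoters of this length. Fgf21 also held an E-box at -50, as did 6.02% of all promoters. In Gdf15 the capitals are a DR1 at -55, a motif found in 0.338% of promoters, and the window of the second Gdf15 start held an E-box. The promoters of Angptl6, Ahsg, Fetub, Lect2 and Sepp1 held no match to these letters in this window. Of the motifs with no match in any of the 8 genes, the cAMP element stood in 1.55% of all promoters, the CHOP composite in 0.487% and IR1 in 0.00609%. A match is a description of the sequence and no site of binding was measured.

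Gdf15 was the only hepatokine gene that passed the quasi-likelihood test of edgeR, and with a liver left out it did so in 1 of 6 fits. Fgf21 and Angptl4 differed by factors of 3.11 and 3.16 without passing that test. Without FXR-WT replicate 1 the factor was 1.48 for Fgf21 and 2.44 for Angptl4, and Angptl4 then passed. Gdf15 and Fgf21 were lower and Angptl4 was higher in Y67F-FXR livers, while the other 6 genes had fitted changes between -0.39 and 0.09 on the log2 scale. A gene was called when its adjusted p was under 0.05 and its fold change over 1.5. By this rule 1 of the 9 genes was called lower, beside 0.426% of all tested genes, and 0 were called higher by edgeR's quasi-likelihood test, beside 0.546%. DESeq2 and the likelihood ratio test each called 1 gene higher, Angptl4, beside 1.72% and 1.77% of all tested genes, and 1 lower, Gdf15, beside 1.73% and 1.81%. Unadjusted p was under 0.05 for 3 of the 9 genes and for 13.4% of all tested genes. Of the 3, Gdf15 and Fgf21 were lower (6.67% of all genes) and Angptl4 was higher (6.75%). Values of the 2 groups did not overlap for 4 of the 9 genes, Fgf21, Gdf15, Ahsg and Angptl4, beside 20.6% of all tested genes. The first 3 were lower, as were 10.5% of all genes, and Angptl4 was higher, as were 10.2%. For Ahsg the gap was small, with 9585 CPM in the highest Y67F-FXR liver and 9635 CPM in the lowest FXR-WT liver. The genes were chosen with earlier results known, so these counts are a description. The median log2 fold change was -0.24 over the 9 genes and 0.01 over all genes tested.

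**Figure D1:**
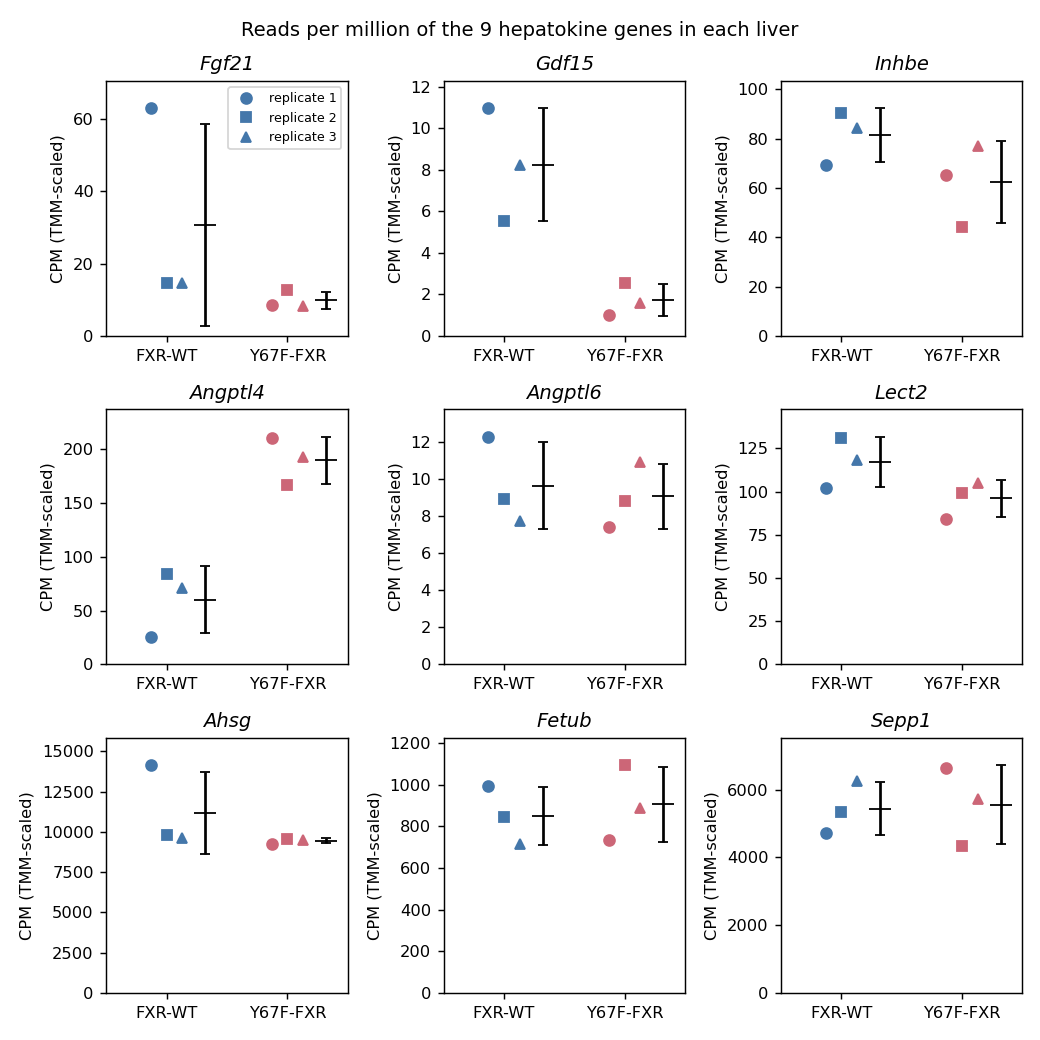
CPM (linear axes from 0) of each hepatokine gene in the 3 FXR-WT livers (blue) and the 3 Y67F-FXR livers (red), with the mean and SD of each group as a black bar. FXR-WT replicate 1 stands at 63.0 CPM for Fgf21 and at 25.0 CPM for Angptl4, apart from the other FXR-WT livers in both panels, and all 3 Y67F-FXR livers lie below the FXR-WT livers for Gdf15.

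Gdf15 (chromosome 8 of mm9, 73153293 to 73155534, 2 exons) had 10.95, 5.53 and 8.25 CPM in FXR-WT replicates 1 to 3. In Y67F-FXR replicates 1 to 3 it had 1.02, 2.56 and 1.58 CPM, which came from 21, 47 and 33 reads. The highest Y67F-FXR liver thus lay below the lowest FXR-WT liver. The gene fell from 8.24 ± 2.71 to 1.72 ± 0.782 CPM (SD, n = 3), a fitted fold of 4.82 lower. Its log2 fold change was -2.27 (standard error 0.372, 95% interval -3.13 to -1.41, adjusted p = 0.0381 by the quasi-likelihood test of edgeR, Benjamini-Hochberg method). This call was lost when FXR-WT replicate 1, 2 or 3 or Y67F-FXR replicate 1 or 3 was left out, with quasi-likelihood adjusted p between 0.0609 and 0.198, and it held without Y67F-FXR replicate 2 (0.0419). The log2 fold change stayed between -2.67 and -2.00 whichever liver was left out.

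Fgf21 (chromosome 7 of mm9, 52869260 to 52870860, 3 exons) had 63.0, 14.6 and 14.6 CPM in the FXR-WT livers and 8.70, 12.6 and 8.35 CPM in the Y67F-FXR livers. FXR-WT replicate 1 was 4.32 times as high as FXR-WT replicate 3, and the remaining 5 livers spanned 8.35 to 14.6 CPM. Group means were 30.7 ± 27.9 and 9.89 ± 2.36 CPM (SD, n = 3). The log2 fold change of -1.64 (standard error 0.569, 95% interval -2.95 to -0.32) did not pass the test, with an adjusted p of 0.256 by the quasi-likelihood method. Without FXR-WT replicate 1 the FXR-WT mean was 14.6 CPM, the log2 fold change was -0.56 and the quasi-likelihood adjusted p was 0.351. Every alternative kept Fgf21 lower in Y67F-FXR livers, and none of them called it.

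Inhbe (chromosome 10 of mm9, 126786458 to 126788828, 2 exons) had 69.4, 90.5 and 84.5 CPM in the FXR-WT livers and 65.3, 44.4 and 77.2 CPM in the Y67F-FXR livers. The groups overlapped, and Y67F-FXR replicate 2 was the lowest of the 6 livers. The fitted log2 fold change of Inhbe was -0.39 (standard error 0.209, 95% interval -0.87 to 0.10, adjusted p = 0.491 by the quasi-likelihood test). Inhbc, which encodes the activin βC subunit and lies 4554 bp from Inhbe, had 101 ± 4.09 CPM in FXR-WT and 64.7 ± 12.6 CPM in Y67F-FXR livers, without overlap. Its log2 fold change was -0.64 with a quasi-likelihood adjusted p of 0.121.

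Angptl4 (chromosome 17 of mm9, 33911845 to 33918520, 7 exons) had 25.0, 83.9 and 71.2 CPM in the FXR-WT livers and 209.9, 166 and 192 CPM in the Y67F-FXR livers. Every Y67F-FXR liver lay above every FXR-WT liver, and FXR-WT replicate 1 was the lowest of all. Group means were 60.0 ± 31.0 and 189 ± 22.0 CPM (SD, n = 3). The log2 fold change was 1.66 (standard error 0.386, 95% interval 0.77 to 2.55), with an adjusted p of 0.106 by the quasi-likelihood test. When FXR-WT replicate 1 was left out, the log2 fold change was 1.29 and Angptl4 was called (quasi-likelihood adjusted p = 0.0227). It was also called by the likelihood ratio test (adjusted p = 0.00197) and by DESeq2 (adjusted p = 0.000578).

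Angptl6 (chromosome 9 of mm9, 20678253 to 20684154, 6 exons), also named angiopoietin-related growth factor, had 12.3, 8.92 and 7.73 CPM in the FXR-WT livers and 7.44, 8.84 and 10.9 CPM in the Y67F-FXR livers. The groups overlapped. Its log2 fold change was -0.09 (95% interval -0.60 to 0.43, adjusted p = 0.923 by the quasi-likelihood test), and it was 0.12 without FXR-WT replicate 1. Part of its exons is shared with A230050P20Rik, and reads on the shared bases were not counted.

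Fgf21 and Angptl4, both PPARα targets, lay on opposite sides, and their ratio within a liver needs no scaling between libraries. FXR-WT replicate 1 held 2.52 Fgf21 reads for each Angptl4 read. In FXR-WT replicates 2 and 3 the order was turned, with 5.75 and 4.89 Angptl4 reads for each Fgf21 read. The Y67F-FXR livers held 24.1, 13.2 and 23.0 Angptl4 reads for each Fgf21 read. The mean of log2(Fgf21/Angptl4) was -1.16 ± 2.15 in FXR-WT and -4.27 ± 0.481 in Y67F-FXR livers (SD, n = 3), a difference of -3.11. All 3 Y67F-FXR livers were below all 3 FXR-WT livers (exact permutation test, two-sided p = 0.1, the smallest p that 3 livers against 3 allow). The difference was -1.87 without FXR-WT replicate 1. Since the pair was chosen with earlier results known, this p is no independent support.

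**Figure D2:**
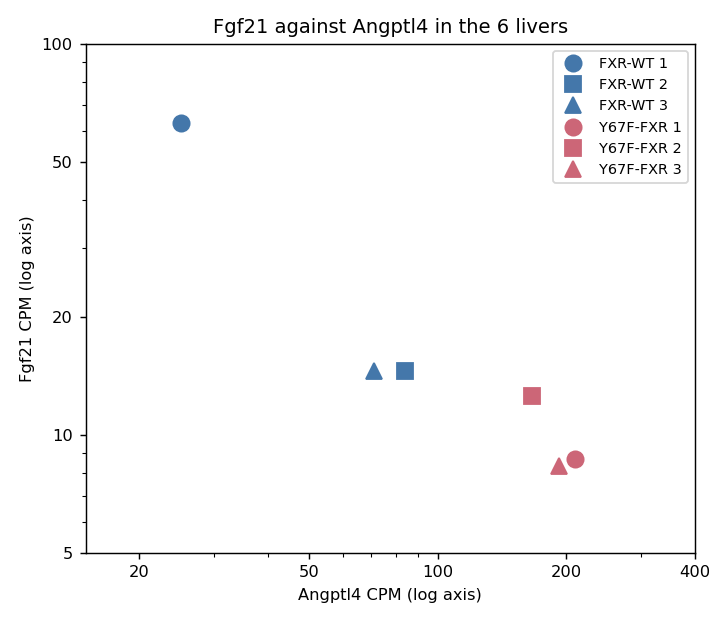
CPM of Fgf21 against CPM of Angptl4 in each of the 6 livers, both on log axes, with blue for FXR-WT, red for Y67F-FXR and the marker shape for the replicate number. The Y67F-FXR livers sit at 166 to 209.9 CPM of Angptl4 and 8.35 to 12.6 CPM of Fgf21, and FXR-WT replicate 1 sits alone at 25.0 and 63.0 CPM.

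Each liver was compared with the mean of the other livers of its group over all tested genes. Values differed from that mean by more than 1 on the log2 scale for 5.66% of genes in Y67F-FXR replicate 2 and 3.73% in Y67F-FXR replicate 1. The share was 4.2% in FXR-WT replicate 1, while it lay between 1.2% and 2.17% in the other livers. Y67F-FXR replicate 2 differed from its group by 0.56 for Fgf21, -0.27 for Angptl4 and 0.96 for Gdf15. FXR-WT replicate 1 differed by more for Fgf21 and Angptl4. Its Fgf21 level exceeded the mean of the other FXR-WT livers by 2.10 on the log2 scale, and only 9 other genes of the 12453 tested did so by as much. Its Angptl4 level was below that mean by 1.62, and 62 other genes were lower by as much. Of the 30 tested ATF4 and CHOP target genes, 26 were higher in FXR-WT replicate 1 than in the mean of the other FXR-WT livers, with a median difference of 0.39 on the log2 scale. Over all tested genes 6258 were higher, with a median of 0.0022. The labels name no difference between the mice of a group, and what set these livers apart was not tested.

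Lect2 (chromosome 13 of mm9, 56643821 to 56649899, 4 exons) had 102, 131 and 118 CPM in the FXR-WT livers and 84.2, 99.2 and 105 CPM in the Y67F-FXR livers. Only the highest Y67F-FXR liver reached into the FXR-WT range. The log2 fold change was -0.29 (standard error 0.143, 95% interval -0.62 to 0.04, adjusted p = 0.449 by the quasi-likelihood test). Of 7 genes listed as its receptors and ligands, 2 were tested, Met and Tie1, and 0 were called by the quasi-likelihood test, DESeq2 or the likelihood ratio test. Neither had an unadjusted p under 0.05. Met, the hepatocyte growth factor receptor, had 61.5 ± 10.7 CPM in FXR-WT and 55.6 ± 5.53 CPM in Y67F-FXR livers. Tie1, an endothelial receptor, had 13.3 ± 3.41 and 14.3 ± 2.21 CPM.

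The 3 most abundant genes of the set encode plasma proteins, and none of them passed the test. Ahsg (chromosome 16 of mm9, 22892115 to 22899511, 7 exons) had 14143, 9812 and 9635 CPM in the FXR-WT livers and 9278, 9585 and 9519 CPM in the Y67F-FXR livers. FXR-WT replicate 1 was again the liver that stood off, and the other 5 lay within 9278 to 9812 CPM. Its log2 fold change was -0.24 (95% interval -0.65 to 0.16, adjusted p = 0.640 by the quasi-likelihood test), and it was -0.04 without that liver. Fetub (chromosome 16 of mm9, 22918455 to 22939841, 9 exons) lies 18944 bp from Ahsg. It had 994, 842 and 715 CPM in the FXR-WT livers and 735, 1093 and 887 CPM in the Y67F-FXR livers, with overlap. The log2 fold change of Fetub was 0.09 (95% interval -0.34 to 0.52, adjusted p = 0.904 by the quasi-likelihood test). Sepp1 (chromosome 15 of mm9, 3220767 to 3230508, 6 exons) had 4712, 5347 and 6267 CPM in the FXR-WT livers and 6636, 4328 and 5710 CPM in the Y67F-FXR livers. Y67F-FXR livers were thus both the highest and the lowest for Sepp1, and its log2 fold change was 0.03 (95% interval -0.41 to 0.47, adjusted p = 0.975 by the quasi-likelihood test). The 95% intervals of these 3 genes lay between 0.638-fold and 1.43-fold.

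**Figure D3:**
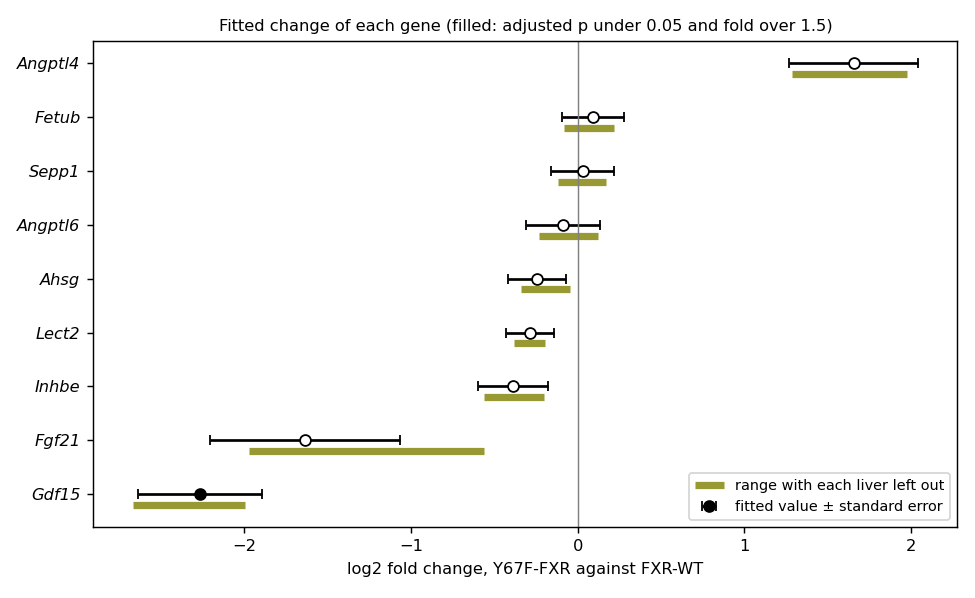
Fitted log2 fold change of each gene, Y67F-FXR against FXR-WT, with its standard error (circles and black bars) and the range of the fitted values when each liver is left out in turn (olive bars). Only Gdf15, at -2.27, is filled as called. The olive bar of Fgf21 reaches from -1.97 to -0.56, the widest of the set.

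Across the 6 livers the highest value was 10.7 times the lowest for Gdf15, 8.38 times for Angptl4 and 7.54 times for Fgf21. It was at most 2.04 times the lowest for each of the other 6 genes. Levels of different genes were compared as RPKM, which divides CPM by the exon length in kilobases. In FXR-WT livers the order was Ahsg (mean 7596 RPKM), Sepp1 (2456), Fetub (477), Lect2 (134), Inhbe (38.2), Fgf21 (32.4), Angptl4 (31.5), Gdf15 (7.60) and Angptl6 (6.16). The ranges of neighbours overlapped for Inhbe with Fgf21, Fgf21 with Angptl4 and Gdf15 with Angptl6, and the other neighbours were apart. In Y67F-FXR livers Angptl4 followed Lect2 with 99.5 RPKM, overlapping only that gene (109.5 RPKM), ahead of Inhbe (29.2), Fgf21 (10.4), Angptl6 (5.80) and Gdf15 (1.59). Gdf15 and Angptl6 did not overlap in that group. By mean over the 6 livers Ahsg had rank 10 and Gdf15 rank 6203 among all 23284 genes. The 9 genes together took from 1.44% to 2.02% of the reads of a library.

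Of 46 PPARα target genes, a list without Fgf21 and Angptl4, 45 were tested and 5 were called higher, with none called lower. Beside these stand 0.546% called higher and 0.426% called lower among all genes. Plin4, a lipid droplet coat protein, rose from 7.42 ± 3.17 to 48.3 ± 11.5 CPM (SD, n = 3, quasi-likelihood adjusted p = 0.0175). Acot1, an acyl-CoA thioesterase, rose from 58.8 ± 7.28 to 155 ± 19.8 CPM (quasi-likelihood adjusted p = 0.0139). Acaa1b, a peroxisomal thiolase, rose from 1209 ± 25.1 to 2298 ± 117 CPM (quasi-likelihood adjusted p = 0.0175). The other called genes, Acot2 and Plin2, were named after their values were seen. Plin4 shares exon bases with Hdgfrp2, and Acot1, Acot2 and Acaa1b have close paralogs, so their counts are uncertain. The fitted change was positive for 44 of the 45 genes, with a median of 0.44. Angptl4 at 1.66 lay above that median and Fgf21 at -1.64 lay below every gene of the list. The number called was 0 without FXR-WT replicate 3, 1 without Y67F-FXR replicate 3, 2 without FXR-WT replicate 2 or Y67F-FXR replicate 1, 3 without Y67F-FXR replicate 2 and 6 without FXR-WT replicate 1. The median of the list stayed between 0.30, without FXR-WT replicate 1, and 0.54. Relative to the mean of all 6 livers, the median gene of the list stood at -0.45 in FXR-WT replicate 1, -0.149 in replicate 2 and -0.0932 in replicate 3 on the log2 scale.

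Of 36 ATF4 and CHOP target genes, a list without Fgf21, Gdf15 and Inhbe, 30 were tested and 0 were called by the quasi-likelihood test. Unadjusted p was under 0.05 for 7 that were lower and 4 that were higher, beside 6.67% and 6.75% of all tested genes, and DESeq2 and the likelihood ratio test each called 1 lower, Chac1, beside 1.73% and 1.81% of all genes. The median log2 fold change was -0.35, and it was -0.13 without FXR-WT replicate 1. Chac1, a glutathione-degrading enzyme, had 6.70, 2.33 and 3.54 CPM in FXR-WT and 0.972, 1.15 and 1.00 CPM in Y67F-FXR livers (log2 fold change -2.00, quasi-likelihood adjusted p = 0.0768), and it was called lower without a filter and with a gene length offset. Gpt2 and Cth, enzymes of amino acid metabolism, lay on the other side, with 518 ± 48.0 against 758 ± 59.1 CPM for Gpt2 and 263 ± 2.26 against 377 ± 52.4 CPM for Cth. Neither passed the test.

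**Figure D4:**
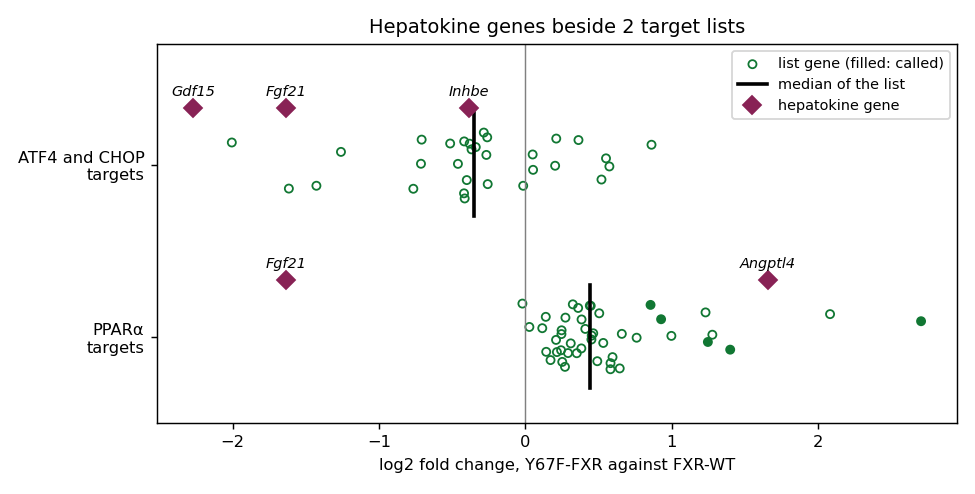
Fitted log2 fold change, Y67F-FXR against FXR-WT, of the tested PPARα target genes and ATF4 and CHOP target genes (green circles, filled where called), with the median of each list as a black bar at 0.44 and -0.35. Purple diamonds are the hepatokine genes known to belong to each pathway: Fgf21 at -1.64 and Angptl4 at 1.66 lie on opposite sides of the PPARα list. The vertical position within a row carries no value.

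Of 23 receptors and regulators of FGF21, 20 were tested and 0 called by the quasi-likelihood test, with unadjusted p under 0.05 for 4 lower and 3 higher, beside 6.67% and 6.75% of all tested genes. Fitted changes were negative for 10 and positive for 10, with a median of 0.02. DESeq2 and the likelihood ratio test each called Nr0b2 lower and Nfil3 higher, beside 1.73% lower and 1.72% higher over all genes by DESeq2. Klb, the FGF21 co-receptor β-Klotho, was at 20.6 CPM in FXR-WT and 20.5 CPM in Y67F-FXR livers. The FXR target Nr0b2 (Shp) had 81.9, 63.7 and 59.5 CPM in FXR-WT and 6.42, 25.9 and 7.59 CPM in Y67F-FXR livers, without overlap (quasi-likelihood adjusted p = 0.0862). It was called lower by that test without a filter, with a gene length offset and when Y67F-FXR replicate 2 was left out. Nfil3 and Nr1d1, transcription repressors of the circadian system, had 10.5 ± 0.776 against 16.7 ± 3.25 CPM and 62.2 ± 10.3 against 92.0 ± 3.54 CPM.

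Of 23 genes of the ANGPTL family and of lipoprotein lipolysis, 22 were found in the files, 20 were tested and 0 called by the quasi-likelihood test, with unadjusted p under 0.05 for 1 lower (6.67% of all tested genes) and 3 higher (6.75%). The median log2 fold change of this list was 0.07. The likelihood ratio test and DESeq2 each called 2 of them higher, Lipg and Apoa5, beside 1.77% and 1.72% of all genes. Lipg, endothelial lipase, had 5.23, 11.8 and 9.03 CPM in FXR-WT and 29.2, 17.6 and 20.8 CPM in Y67F-FXR livers (quasi-likelihood adjusted p = 0.0969), and it was called higher with a gene length offset. Apoa5, an activator of triglyceride clearance, had 1381 ± 214 against 2289 ± 391 CPM. Lpl, the lipase that ANGPTL4 inhibits, had 15.9 ± 5.41 against 8.86 ± 1.97 CPM (quasi-likelihood adjusted p = 0.210).

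Of 25 genes of activin and GDF15 signalling, 20 were tested and 0 called by the quasi-likelihood test, with unadjusted p under 0.05 for 3 lower and 1 higher, against shares of 6.67% and 6.75% over all genes. The list had 12 negative and 8 positive fitted changes and a median of -0.09. DESeq2 and the likelihood ratio test each called 2 lower, Inhbc and Egr1, beside 1.73% and 1.81% over all genes. Gfral and Ret, which form the GDF15 receptor, had no read in any liver. Egr1, an immediate early transcription factor known to act on Gdf15, had 37.0, 17.4 and 38.7 CPM in FXR-WT and 6.12, 11.0 and 5.25 CPM in Y67F-FXR livers (log2 fold change -2.06, quasi-likelihood adjusted p = 0.0547). The quasi-likelihood test called Egr1 lower with library totals, without a filter, with a gene length offset and when FXR-WT replicate 2 or Y67F-FXR replicate 2 was left out. Trp53, which encodes p53, another known activator of Gdf15, had 25.2 ± 2.96 against 18.0 ± 0.272 CPM (quasi-likelihood adjusted p = 0.145).

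Among 30 genes of selenoproteins and selenium handling, 25 were found under their names, 24 were tested and 1 was called lower, beside 0.426% of all genes. This was Selenbp2, a selenium-binding protein that contains no selenocysteine. It fell from 216 ± 36.5 to 29.4 ± 2.77 CPM (SD, n = 3, log2 fold change -2.88, quasi-likelihood adjusted p = 0.00141). Its paralog Selenbp1 had 243 ± 33.8 against 274 ± 27.6 CPM, with overlap. Reads that match several places were not counted, so the counts of such paralogs are uncertain. Secisbp2, which recruits the selenocysteine machinery to transcripts such as Sepp1, had 17.0 ± 1.59 against 12.4 ± 1.03 CPM, and Selk had 57.6 ± 10.1 against 42.1 ± 2.47 CPM. Neither passed the test, and the median of the list was 0.02. Of 37 cystatin-domain and major plasma protein genes, 36 were tested and 0 called by the quasi-likelihood test, DESeq2 or the likelihood ratio test, with unadjusted p under 0.05 for 3 that were lower, beside 6.67% of all genes, and a median of -0.01. Those 3 were the fibrinogen genes Fgb (3484 ± 529 against 2404 ± 251 CPM), Fgg (2596 ± 327 against 2048 ± 82.7 CPM) and Fga (3309 ± 307 against 2522 ± 399 CPM).

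The genes most like 3 of the hepatokines over the 6 livers were found by the root mean square distance of centred log2 CPM among 11513 other genes that averaged 1 CPM or more. Nearest to Fgf21 were Acta2 (distance 0.19), Mthfd2 (0.20), Atf3 (0.32) and Tmed3 (0.37), beside 0.99 for the median gene. These 4 were highest in FXR-WT replicate 1, Acta2 with 9.88 CPM against 1.60 and 1.56 CPM in the other FXR-WT livers. Mthfd2 and Atf3 were low in every liver, at 0.389 to 2.98 CPM and 0.43 to 2.84 CPM, so counting error weighs on their distances. Nearest to Angptl4 were Aim1l (0.14), Rab30 (0.18), Cidec (0.22), Pnldc1 (0.23) and Elovl3 (0.26), beside 1.09 for the median gene. All 5 were lowest in FXR-WT replicate 1, and Elovl3 was called higher (quasi-likelihood adjusted p = 0.0336). Elovl3 shares exon bases with Pitx3, and reads on the shared bases were not counted. Around Inhbe were Stk38l (0.05), Gm9776 (0.07), AW209491 (0.08), Pparg (0.09) and Arid3b (0.09), beside 0.40 for the median gene. Each of these was lowest in Y67F-FXR replicate 2. The distances come from the same 6 libraries as the values above and are a description.

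Markers of cell types were checked beside these results. The hepatocyte markers summed to between 107900 and 118400 CPM in FXR-WT and between 107300 and 128300 CPM in Y67F-FXR livers, and 0 of 8 were called or had an unadjusted p under 0.05 by the quasi-likelihood test. In the main fit none of 13 Kupffer cell and leukocyte, 8 sinusoidal endothelial, 9 stellate cell and fibroblast, 7 cholangiocyte and 1 tested erythrocyte marker was called by the quasi-likelihood test either. DESeq2 and the likelihood ratio test each called 3 markers lower, S100a8 and S100a9 of neutrophils and Lrat of stellate cells, beside 1.73% and 1.81% of all genes. The quasi-likelihood test also called Lrat lower with RLE scaling, without a filter and with a gene length offset. It called S100a8 lower with library totals, without a filter and with that offset, and S100a9 with that offset. S100a8 was near the floor, at 1.03 ± 0.211 CPM in FXR-WT and 0.151 ± 0.0982 CPM in Y67F-FXR livers. Sums of the stellate cell and fibroblast list ranged from 211 to 309.5 CPM in FXR-WT and from 218 to 255 CPM in Y67F-FXR livers, and unadjusted p was under 0.05 for 3 of its 9 genes, all lower (Lrat, Col1a1 and Acta2), beside 6.67% of all genes. Those of the Kupffer cell and leukocyte list ranged from 185 to 267 CPM and from 149 to 377 CPM, with 62.2 CPM of Marco in Y67F-FXR replicate 2 and an unadjusted p under 0.05 for 2 of 13 genes, both lower, beside the same 6.67%. Of the sinusoidal endothelial genes 1 lower and 1 higher of 8 had such a p (6.67% and 6.75% of all genes), and none of the cholangiocyte or erythrocyte genes did. Sums were 250 to 282 against 269 to 279 CPM for sinusoidal endothelial, 48.0 to 73.6 against 56.1 to 62.5 CPM for cholangiocyte and 80.1 to 89.3 against 86.5 to 114 CPM for erythrocyte markers. Of all markers only Hba-a1, Hba-a2, Hbb-b1 and Hbb-b2 were at 0 in every liver. The part of other cells in the values of Fgf21, Gdf15 or Angptl4 was not tested.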

How the data were processed

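Paired-end RNA-seq was run on 3 livers of each group. Per the file headers and the submitters' processing notes, the authors made FASTQ files with bcl2fastq 2.17.1.14, checked them with FastQC 0.11.5, trimmed with Trimmomatic 0.36, aligned with STAR 2.5.3a and counted with featureCounts 1.4.6-p4. The deposited values are raw read counts per gene on mm9 gene models, counted without strand, with each mate counted singly and reads of several genes or places left out. Antisense or overlapping genes therefore cannot be told apart on shared bases. A deposited table of the authors' own comparison (fold change, mean level, p-value and FDR) was not used.

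Library totals of 19551113 to 22053320 reads set the counting error. Groups were taken from the sample titles. Each library came from 1 biological sample per the study's methods, and p-values judge the difference between groups against the spread between these samples. Low counts were removed by filterByExpr, libraries were scaled by TMM, and 12453 genes were tested by quasi-likelihood in edgeR 4.0.16 (limma 3.58.1, R 4.3.3) with Benjamini-Hochberg adjustment. Calls required a fold change over 1.5 and an adjusted p under 0.05. Log2 CPM used a prior count of 2. Intervals are 95% confidence intervals of the fitted log2 fold change, with a standard error that rests on the spread between livers.

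All 9 hepatokine genes were named. Of each gene list, the 3 tested genes with the smallest p were named, and for Fgf21, Angptl4 and Inhbe the 5 genes nearest over the livers. A few genes that this rule names are not reported here. The members and lists were chosen with earlier results of these data known. Alternatives were DESeq2 1.42.0, edgeR's likelihood ratio test, other scalings and filters, a gene length offset (loess span 0.3), a replicate block and leaving out each liver. Promoters came from RefSeq (GRCm38.p6), and no coordinate was converted between builds. Figures were drawn with matplotlib 3.10.9.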

Additional observations from a re-analysis of the deposited data

How the results depend on the processing

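Fgf21, Gdf15, Ahsg, Lect2 and Inhbe stayed lower and Angptl4 stayed higher in Y67F-FXR livers under every alternative run. Gdf15 was called in 7 of 8 alternatives that kept all livers and in 1 of 6 that left out a liver. Its log2 fold change ranged from -2.67 to -2.00 with a liver left out. The number of hepatokine genes called lower ranged from 0 to 1 with a liver left out. The number called higher also ranged from 0 to 1, was 1 without FXR-WT replicate 1 and was 1 by DESeq2 and by the likelihood ratio test. Fitted values near 0 changed sign: Angptl6 ranged from -0.23 to 0.12 with a liver left out (0.12 without FXR-WT replicate 1, 0.039 without Y67F-FXR replicate 1). Fetub ranged from -0.08 to 0.22 (-0.079 without Y67F-FXR replicate 2, -0.021 without FXR-WT replicate 3). Sepp1 ranged from -0.12 to 0.17 (-0.12 without Y67F-FXR replicate 1, -0.07 without FXR-WT replicate 1) and was -0.035 with library totals. The difference of log2(Fgf21/Angptl4) ranged from -3.79 to -1.87 with a liver left out (exact permutation p 0.1 without any one FXR-WT liver, the smallest possible there, and 0.2 without any one Y67F-FXR liver). PPARα targets called numbered 12 by DESeq2, 12 by the likelihood ratio test, 8 with the length offset and 0 to 6 with a liver left out. ATF4 and CHOP targets called numbered 1 by DESeq2, by the likelihood ratio test, without a filter and with the length offset, and 0 with any liver left out. The cause of these shifts was not tested.

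Over all tested genes 53 were called lower and 68 higher. The counts were 215 and 214 by DESeq2, 226 and 221 by the likelihood ratio test, 124 and 123 with the length offset, 81 and 86 without a filter, and 68 and 52 with library totals. They were 31 and 35 without FXR-WT replicate 1, 33 and 17 without FXR-WT replicate 2, 7 and 2 without FXR-WT replicate 3, 16 and 20 without Y67F-FXR replicate 1, 27 and 33 without Y67F-FXR replicate 2, and 17 and 9 without Y67F-FXR replicate 3.

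Deviations of same-numbered livers from their groups correlated at -0.517, -0.0804 and 0.121, and no liver correlated best with its own number except Y67F-FXR replicate 3. Across unlike numbers, FXR-WT replicate 1 correlated with Y67F-FXR replicate 2 at 0.537. FXR-WT replicate 3 correlated at 0.578 with Y67F-FXR replicate 1 and at -0.586 with Y67F-FXR replicate 2. Deviations within a group of 3 are not independent, so these values cannot decide whether livers were paired or shared a batch. With the replicate block 6 genes were called lower and 2 higher, 0 of them hepatokine genes (Gdf15 at -2.27, adjusted p = 0.190 by edgeR), and 0 were PPARα targets. The paired exact p of the Fgf21 and Angptl4 difference of -3.11 was 0.25. Gdf15 rests on 21 to 224 reads a liver.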

Other observations

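Other secreted liver factors were measured beside the hepatokines. Of 45 such genes 43 were tested, 1 was called lower and 0 higher by edgeR's quasi-likelihood test, with an unadjusted p under 0.05 for 9 that were lower and 2 that were higher. Among all tested genes 0.426% were called lower and 0.546% higher, and the unadjusted p was under 0.05 for 6.67% that were lower and 6.75% that were higher. DESeq2 called 4 of these genes lower and the likelihood ratio test 3, beside 1.73% and 1.81% of all tested genes. The called gene was Manf, a secreted factor of the endoplasmic reticulum stress response, which fell from 253 ± 109 to 55.6 ± 6.76 CPM (SD, n = 3, adjusted p = 0.0210). The call of Manf was lost when FXR-WT replicate 3, Y67F-FXR replicate 1 or Y67F-FXR replicate 3 was left out, and with the replicate block. Tsku, which encodes the secreted protein tsukushi, had 185 ± 46.9 against 97.9 ± 6.86 CPM. It did not pass the quasi-likelihood test except with a gene length offset. The median of the 43 genes was -0.20 on the log2 scale.

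Genes within 50000 bp of a hepatokine gene were read for the same contrast. Dnajb11, a co-chaperone of the endoplasmic reticulum that lies 12408 bp from Ahsg, fell from 165 to 78.3 CPM (log2 fold change -1.08, adjusted p = 0.0210 by edgeR's quasi-likelihood test), while Ahsg had a log2 fold change of -0.24 and Fetub of 0.09. Next to Fgf21, Fut1 at 2116 bp had a log2 fold change of -0.46 and Bcat2 at 24180 bp one of 0.00. Near Gdf15, Lrrc25 at 8544 bp had -0.23. A230050P20Rik, which overlaps Angptl6, had 50.3 against 33.1 CPM and a log2 fold change of -0.60.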
